A study of Sus scrofa with 23 samples.

Results

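The division step of in vivo fertilized Duroc pig embryos from 4 to 8 cells was read from 1 RNA library at each stage, 2 of the 23 libraries of the series. Both were taken by their stage labels. They came from the IV-D group, embryos of the Duroc breed that were conceived by artificial insemination with semen of the same boar, flushed from the reproductive tract of sows and pooled before lysis. Only embryos of normal form with few fragments entered the pools. The other IV-D libraries were MII oocytes (ovulated, arrested in the second meiotic division), 1-cell and 2-cell embryos, morulae and blastocyst parts, of which IT held the inner cell mass together with trophectoderm and TE held trophectoderm alone. The same step was also available in NT-D and NT-LW embryos, clones made by transfer of nuclei of a Duroc and of a Laiwu donor cell line into in vitro matured oocytes and then cultured. Each library is 1 pool, so no spread between embryos was measured and no test between the stages was possible. Intervals given with a fold are 95% Clopper-Pearson intervals that cover the counting of fragments only.

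An ovulated oocyte carries a store of RNAs and proteins made while it grew, and the first divisions run on that store. The embryo then clears the maternal RNAs and begins to transcribe its own genome, a handover called the maternal-to-zygotic transition, which in the pig is known to centre on the 4-cell stage. Clearance uses deadenylases, enzymes that shorten the poly(A) tail, and adaptors that bring them to their targets. Activation of the genome is known to supply ribosomal proteins, mitochondrial enzymes and the junction proteins that are needed for compaction into a morula.

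The values were FPKM, fragments per kilobase of gene, scaled to library depth. The table held 8603 genes, and 7995 reached an FPKM of 1 in either library. A gene was called higher or lower when its log2(FPKM + 1) differed by more than 1 between the libraries. By this rule 2801 genes (35.0% of those compared) were higher at the 8-cell stage and 2250 (28.1%) were lower, while 2944 were neither. The genes that were lower took 45.4% of the fragments on the table's genes at 4 cells and 7.64% at 8 cells. Those that were higher took 11.7% and then 53.8%. The median difference over all genes compared was 0.25 on this log2 scale, and scaling by the median ratio of the genes present in both libraries would lower the difference of abundant genes by about 0.35 and that of genes near or below the pseudocount by less. That scaling gave 2325 higher and 2593 lower genes. FPKM gives shares of a library, so a lower value need not mean fewer copies in an embryo when other genes take a larger share. Copies per embryo were not measured, and fewer cells of a type and less RNA per cell cannot be told apart. Lengths of poly(A) tails were not measured either, and their part in the values was not tested. Lost and gained refer below to shares of a library. Counts of higher and lower members of a list are to be read beside the 35.0% and 28.1% of all genes compared.

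The 4-cell library had 15853337 fragments, of which 84.8% lay on the table's genes, and the 8-cell library had 20549009 with 95.3%. One fragment on a gene of 1 kb stood for an FPKM of 0.0631 and 0.0487. The labels were checked against oocyte and early embryo genes. Of these 6 were in the table (ZP3, ZP4, GDF9, BMP15, OOEP and NANOG), each was above an FPKM of 6 at the 4-cell stage and all 6 were lower at the 8-cell stage. The same libraries and rule give the losses described below, so this is not a separate check of the labels. Markers of other cells were few. The summed FPKM of 5 cumulus cell genes was 78.3 at 4 cells and 23.1 at 8 cells, mostly from VCAN, a matrix proteoglycan that the oocyte library held at 119.7. The 5 fibroblast genes summed to 6.11 and 1.07, the 3 oviduct and uterine genes to 4.6 and 2.19, and the 3 blood cell genes to 0.247 and 0.417. The 2 sperm genes summed to 88 and 18.5, mostly from LDHC, a lactate dehydrogenase of germ cells, at 85.7 and 13.5. The other sperm gene was called in neither direction, with a log2 difference of 0.84.

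**Figure D1:**
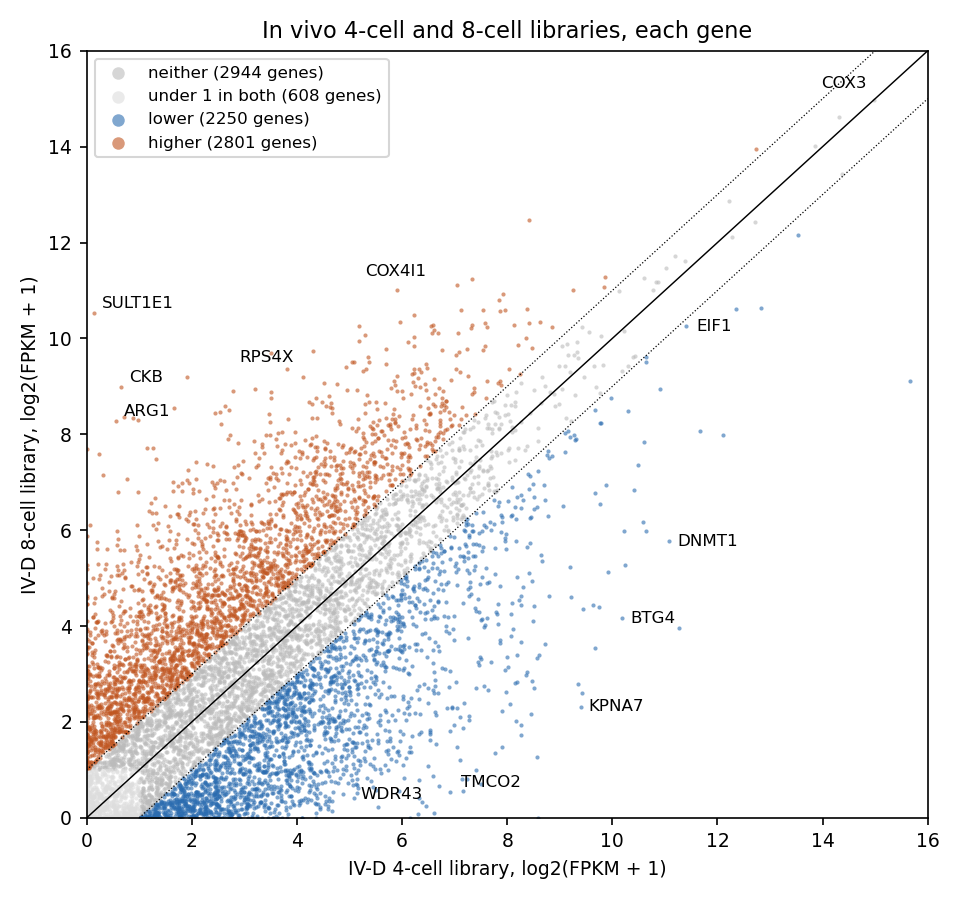
Each point is a gene, with log2(FPKM + 1) in the IV-D 4-cell library on the x axis and in the 8-cell library on the y axis (1 library each). The solid line marks equal values and the dotted lines a difference of 1. SULT1E1 sits at the upper left edge (FPKM 0.10 and 1473) and KPNA7 far below the line (673 and 4.0), while the mitochondrial COX3 lies on the line.

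Most transcripts lost at the step were present before the 4-cell stage, as most genes of the table were. Of the 2250 lower genes, 2058 (91.5%) had an FPKM of at least 1 in the MII oocyte, 1-cell or 2-cell library. The share was 81.9% of all genes compared, 86.2% of those that were neither and 69.6% of the higher genes. The rule helps to set this contrast. A lower gene had to exceed an FPKM of 1 at 4 cells, and a higher gene did not. These 2058 are called stored for their earlier presence alone. EIF1, which was higher at 4 than at 2 cells, is among them, so storage and new transcription cannot be told apart. Their median FPKM was 14.1 in oocytes, 13 at 1 cell, 11 at 2 cells and 14.2 at 4 cells, and then 2.04 at the 8-cell stage. It was 1.68 in morulae, 1.54 in IT and 1.2 in TE. At the 8-cell stage 63.3% of them still had an FPKM of 1 or more. Their share of the fragments went from 43.6% to 7.39%.

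On the log2(FPKM + 1) scale, the largest fall among genes with a symbol was that of KPNA7, an importin alpha of oocytes that carries proteins into the nucleus. Its FPKM was 1000.4 in oocytes, 673 in the 4-cell library and 4.0 in the 8-cell library, a 168-fold lower level (interval 145 to 197, from 22617 and 174 fragments). MCUB, an inhibitory subunit of the mitochondrial calcium uniporter, stood at 649.6 and 5.88 (fold 110.4, interval 95.5 to 128). BTG4, the adaptor that brings the CCR4-NOT deadenylase to maternal RNAs, was among the most abundant of all stored transcripts. It had an FPKM of 6335 in oocytes, 5469 at 2 cells, 1169 at 4 cells and 16.9 at 8 cells (fold 69.3, interval 64.6 to 74.3), and thus had begun to decline before the 4-cell stage. SRPX and ACYP2, the latter an acylphosphatase, followed the same course, from 1248 and 2361 at 2 cells through 307 and 350.1 at 4 cells to 2.8 and 3.49 at 8 cells.

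WDR43, a factor of small-subunit ribosome assembly, had 3872 fragments at 4 cells and 4 at 8 cells, FPKM 78.3 and 0.0624. It stayed at or below 0.137 in every later IV-D library. Its fold was 1255 with an interval of 489.7 to 4607. INPP1, an inositol phosphatase, went from 363 to 5.55. PRR16 stood at 237 and 3.7, and CHODL at 252 and 5.13. TESC, a calcium-binding protein, stood at 78.7 and 0.721. B3GNT4, a glycosyltransferase, had an FPKM of 95.2 and 0.818. HSPB1, a small heat shock protein, had 634 and 3 fragments, FPKM 45.7 and 0.167, and a fold of 274 with the wide interval of 93.3 to 1332.

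A pair of the genes with the largest falls were high again in the TE library, but not in IT, which also holds trophectoderm. UCHL1, a deubiquitinase abundant in oocytes and neurons, had an FPKM of 308 and 2.32 at the step, 1.3 in morulae and 2.03 in IT, but 215 in TE. PSPH, which completes serine synthesis, stood at 217 and 1.54, then 0.80, 3.95 and, in TE, 155. The most abundant single entry of the lower class has no symbol in the tables used. This gene, ENSSSCG00000000296, singled out after its values were seen, had an FPKM of 95286 in oocytes, 147423 at 2 cells, 51863 at 4 cells and 549 at 8 cells. In all, 344 of the stored transcripts that were lower carried no symbol.

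**Figure D2:**
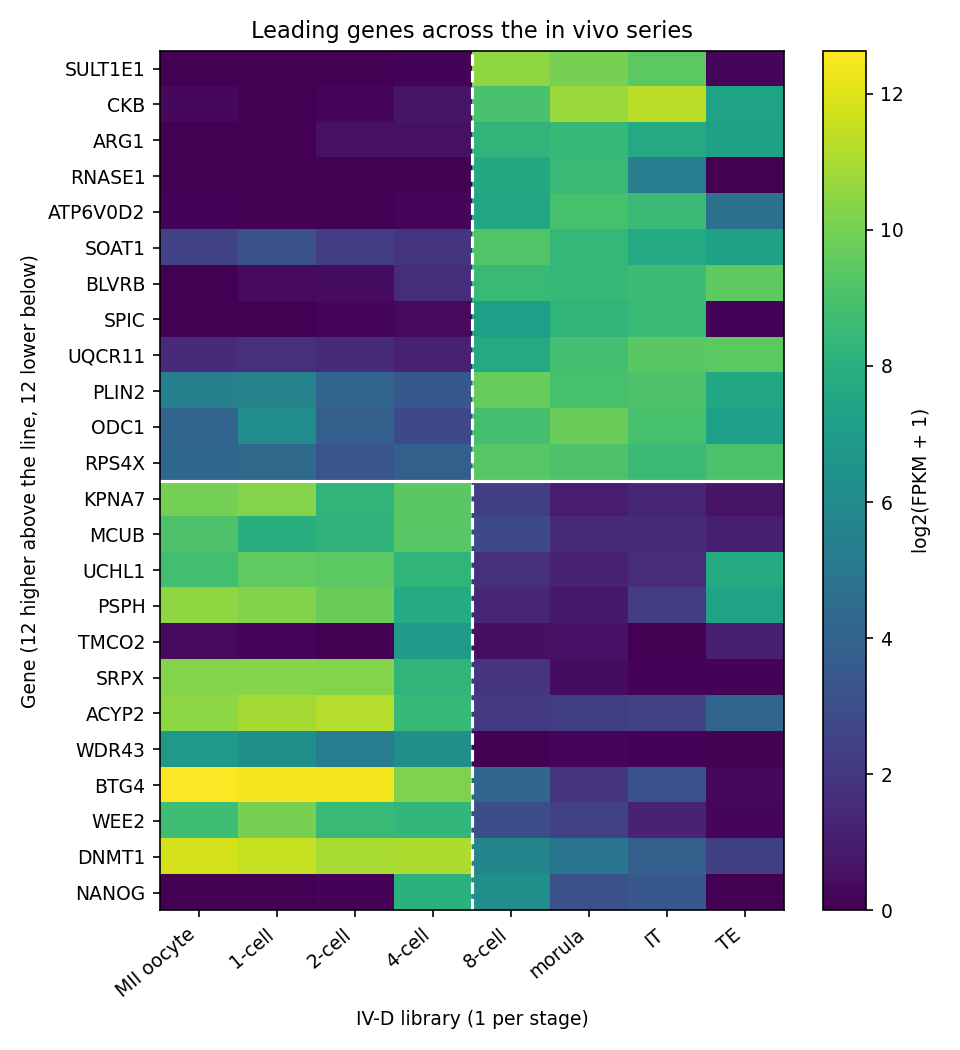
The heat map shows log2(FPKM + 1) of 24 named genes (rows) in the 8 IV-D libraries (columns, 1 library each), with the dashed line at the step. The 12 genes above the solid line were higher at 8 cells than in any earlier library, and SULT1E1, RNASE1 and SPIC were low again in TE. The genes below it were high before the step, apart from TMCO2 and NANOG, which were high at the 4-cell stage after a near absence.

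A smaller class first appeared at the 4-cell stage and was lower at the 8-cell stage. The remaining 192 lower genes were under an FPKM of 1 in oocytes, 1-cell and 2-cell embryos, so the 4-cell library was the first to hold them. Their median FPKM was 0.0733 at 2 cells, 9.99 at 4 cells, 0.76 at 8 cells and 0.292 in morulae. At the 8-cell stage 42.2% of them were still at 1 or above, a share that the choice of lower genes helps to set. The share at 1 or above was 38.0% in morulae, 37.5% in IT and 29.2% in TE, so part of the class stayed present. They took 1.77% and then 0.248% of the fragments, and 62 of them carried no symbol, a larger part than in the other classes (344 of 2058 stored, 331 of 2252 and 93 of 549 among higher genes).

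TMCO2, a transmembrane protein gene, had the largest difference of log2(FPKM + 1) among genes of this class with a symbol. Its FPKM was 0.258 in oocytes, 0 at 2 cells, 120.1 at 4 cells and 0.446 at 8 cells (fold 269.6, interval 115 to 832, from 1040 and 5 fragments). The clone libraries showed less of it at the 4-cell stage, 11 in NT-D and 3.92 in NT-LW. The gene ENSSSCG00000035435, without a symbol and also singled out after its values were seen, had 1821 fragments at 4 cells and 0 at 8 cells, at least 787-fold lower when 3 fragments are taken as the floor of a library.

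Other genes of this class were named for the size of their change. DSG1, a desmosomal cadherin of the epidermis, had an FPKM of 16.3 and 0.30. KRTAP11-1, a hair keratin-associated protein, stood at 33.1 and 1.44, and CRYGC, a lens crystallin, at 19.6 and 0.391. IL2RG, the common gamma chain of interleukin receptors, stood at 39.6 and 1.86, and the protease TMPRSS11A at 19.7 and 0.0664. MCTS1, which re-initiates translation, stood at 30.4 and 0.656, and GCSAML at 19.8 and 0.516. Outside the 4-cell library none of them exceeded an FPKM of 1.86 in any IV-D library. NANOG, the pluripotency factor, also belonged here, with an FPKM of 0.0951 at 2 cells, 269 at 4 cells, 78.1 at 8 cells, 7.73 in morulae, 9.8 in IT and 0 in TE.

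Transcripts gained at the step fell into a larger group that had been detected before and a smaller one that had not. Of the 2801 higher genes, 2252 (80.4%) had reached an FPKM of 1 in at least one library up to the 4-cell stage. Their median FPKM was 3.61 in oocytes, 3.22 at 2 cells, 5.5 at 4 cells and 31.6 at 8 cells, and it stayed at 31.7 in morulae, 28.3 in IT and 23.2 in TE. Their share of the fragments went from 11.6% to 51.6%. The other 549 genes had been under 1 in every earlier library and had a median FPKM of 0.287 at 4 cells, 4.26 at 8 cells and 4.82 in morulae. Of these newly seen genes 91.3% were at 1 or above in morulae, 82.5% in IT and 70.7% in TE, against 80.2%, 79% and 75.3% of all genes in the table. By choice all 549 were at 1 or above at 8 cells, beside 80.8% of all genes, so the comparison starts from unequal shares.

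**Figure D3:**
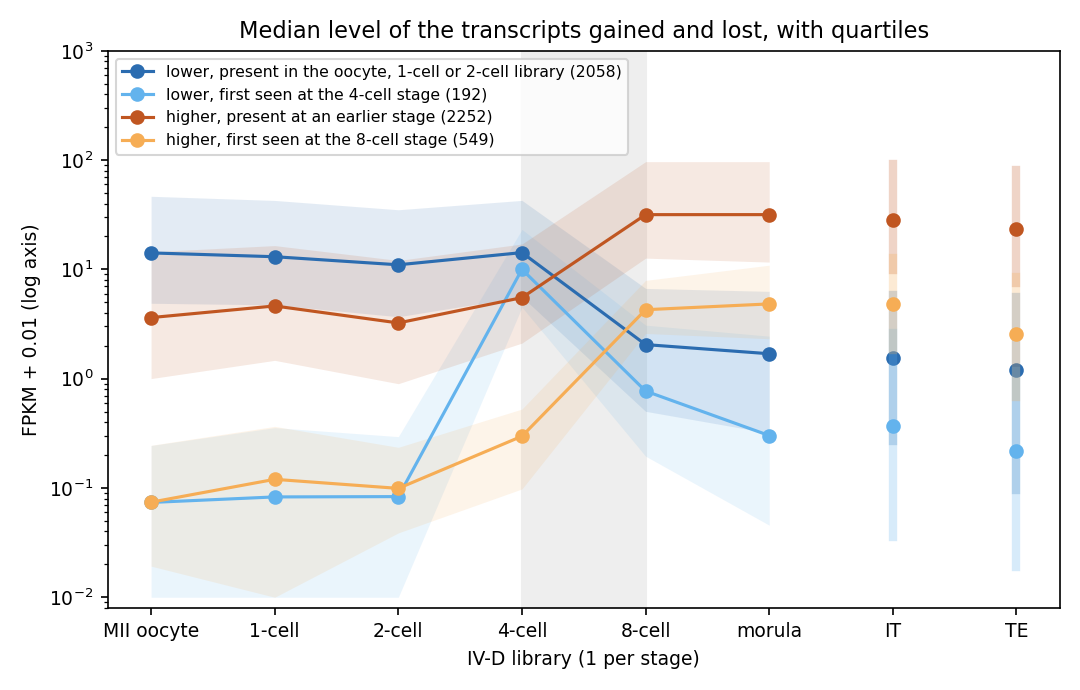
Lines join the median FPKM of each class in the IV-D libraries on a log axis (0.01 added), bands and bars span the quartiles, and the shaded strip is the step described. Stored transcripts that were lost ran level until the 4-cell stage and dropped from 14.2 to 2.04, and the gained classes kept their 8-cell level in morulae. The values of the libraries up to 8 cells define the classes, so only morulae, IT and TE lie outside the choice.

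SULT1E1, which attaches sulfate to estrogens, showed the largest difference of all genes. It had 0 fragments in oocytes, 1-cell and 2-cell embryos, 6 in the 4-cell library and 114384 in the 8-cell library, FPKM 0.10 and 1473. The fold was 14708 (interval 6757 to 40078). Its level was 1061 in morulae, 699 in IT and 0.177 in TE. CKB, the brain-type creatine kinase that buffers ATP, went from 0.568 to 504 (fold 888, interval 538 to 1587) and reached 1708 in morulae and 2519 in IT. ARG1, the arginase of the urea cycle, went from 0.466 to 309 (fold 665, interval 396 to 1216).

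RNASE1, a secreted ribonuclease, had 0 fragments in every library up to 4 cells and 2530 at 8 cells, an FPKM of 206 and a level at least 651-fold higher than the floor of 3 fragments. It was 362 in morulae and 0 in TE. SPIC, an ETS family transcription factor, stood at 0.238 and 140.2 (fold 589, interval 271 to 1607), then 310.5 in morulae, 376 in IT and 0.0841 in TE. CPPED1, a phosphatase, stood at 0.0389 and 68, with only 2 fragments at the 4-cell stage, so that its fold of 1751 had an interval of 485 to 14465. IFI6, an interferon-stimulated gene, was at 11.4 in 2-cell embryos, 0.144 and 52.7 at the step and then 9.04 in morulae and 0.305 in TE. Higher genes without a symbol included ENSSSCG00000032708, chosen after its values were seen, at 0.633, 328 and, in morulae, 1.11.

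Further genes with large gains have varied roles. SOAT1, which esterifies cholesterol, went from 2.74 to 582 (fold 212, interval 181 to 251), and PLIN2, the coat protein of lipid droplets, from 10.3 to 829 (fold 80.3, interval 75.3 to 85.7). Both had been present in oocytes, at 4.63 and 44.3. BLVRB, a biliverdin reductase, stood at 2.18 and 373, and GPD1L, related to glycerol-3-phosphate dehydrogenase, at 4.89 and 297. CD9, a tetraspanin of the cell surface, went from 8.24 to 488 and rose further to 1274 in TE. CRABP2, which carries retinoic acid, went from 5.51 to 365.

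Genes of the mitochondrial respiratory chain that lie in the nucleus moved almost as a block. Of 56 subunits compared, 52 (92.9%) were higher and 0 lower, with a median difference of 3.05 beside 0.25 for all genes and a range of 0.17 to 6.55. Their summed FPKM was 2401 at 4 cells and 17049 at 8 cells. UQCR11 of complex III went from 1.22 to 208, NDUFA9 of complex I from 2.74 to 131 and COX4I1 of complex IV from 59 to 2056. NDUFAB1, the mitochondrial acyl carrier protein, went from 1.5 to 177. Among the few that did not pass, COX8A was abundant at both stages, 568 and 806.

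The 13 protein genes of the mitochondrial genome, grouped by chromosome after the data were seen, did not share this step. Their summed FPKM was 118416 and 126158, 1 was higher (ND4, 6827 and 15932) and 0 lower, and the median difference was 0.17. All 13 were higher in the 4-cell than in the oocyte library, and their summed FPKM was 19158.9 in oocytes, 71423 at 1 cell and 85436 at 2 cells. COX3 stood at 4104 in oocytes, 16959 at 1 cell, 22901 at 2 cells, 32156 at 4 cells and 32214 at 8 cells. The nuclear gene HENMT1, which methylates small RNAs of the germ line, was among the most abundant transcripts of the 8-cell library, at 2323 and 3357, and did not pass the rule.

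Around the respiratory chain, the tricarboxylic acid cycle list had 17 of 23 genes higher and 1 lower (median 1.65), or 12 and 3 under median-ratio scaling. DLD, a shared subunit of the mitochondrial dehydrogenase complexes, went from 10.3 to 430.5, and SDHD of succinate dehydrogenase from 10.2 to 251. OGDH was the one that was lower, at 3.44 and 0.754. Glycolysis and glucose transport was mixed, with 7 higher and 2 lower of 14 (median 1.10). ENO1, an enolase, went from 2.14 to 112 and GPI from 0.514 to 12.2, whereas HK2, a hexokinase, stood at 17.7 and 4.35. LDHA and LDHB, the subunits of lactate dehydrogenase, moved apart: LDHB went from 2.53 to 30, and LDHA, which did not pass, stood at 71 and 42.

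The machinery of protein synthesis was gained as well. Of 45 cytosolic ribosomal protein genes 42 (93.3%) were higher and 0 lower, with a median of 2.72, and their summed FPKM was 4041 and 26678. RPS4X went from 13 to 658, RPL7 from 35.4 to 992 and RPL4 from 32.1 to 725. RPS28 was the least changed, at 141 and 264. Ribosomal protein genes have many processed copies in mammalian genomes, so the authors' counting may have split or dropped some of their fragments. Mitochondrial ribosomal proteins had 48 of 57 higher and 0 lower (median 2.01), led by MRPS2 (0.193 and 32.5) and MRPL45 (4.44 and 116).

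Aminoacyl-tRNA synthetases and their partners, which load amino acids on tRNAs, had 17 of 20 higher and 0 lower (median 1.70), among them KARS1 (6.15 and 73.8) and AARS1 (1.77 and 20.7). Translation factors had 31 higher and 5 lower of 46 (median 1.61). EIF2S1, the alpha subunit of eIF2, went from 18.4 to 396 and EEF1D from 0.272 to 35.2. EIF1, which scans for the start codon, went the other way from an exceptional level, 1089 at 2 cells, 5247 at 4 cells and 1564 at 8 cells (fold 3.36, interval 3.32 to 3.39). The summed FPKM of the list therefore hardly differed, 7958 and 7738. Ribosome biogenesis factors had 32 higher and 7 lower of 54 (median 1.27), with GNL3, a nucleolar GTPase, at 5.15 and 129.9 and DDX21, a nucleolar helicase, at 181 and 31.5.

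**Figure D4:**
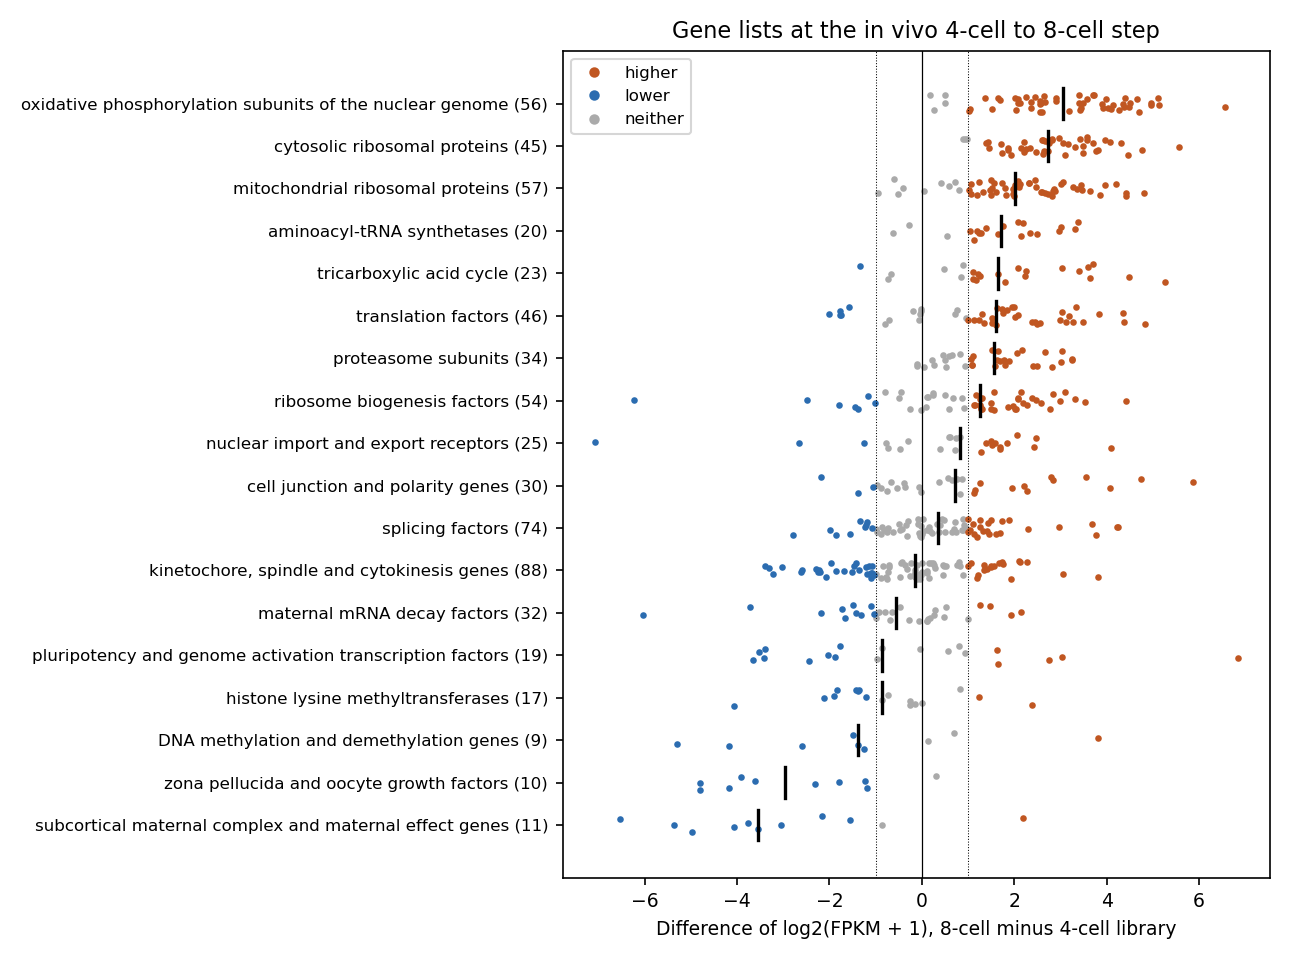
Each point is a gene of a list (number compared in brackets), placed by its difference of log2(FPKM + 1) between the 8-cell and 4-cell libraries, and black bars are list medians. The dotted lines mark differences of 1. Respiratory and ribosomal lists lie to the right (medians 3.05 and 2.72), and the zona and maternal effect lists to the left (-2.97 and -3.56).

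Proteasome subunits had 22 of 34 higher and 0 lower (median 1.55). PSMA1 of the core went from 56.9 to 549 and PSMC6 of the base from 23.7 to 199.7, while PSMB2 stood at 254 and 449 and did not pass. Ubiquitin conjugating enzymes and deubiquitinases showed no such block, with 19 higher and 15 lower of 63, a balance that turned to 15 and 20 under median-ratio scaling. UBE2C, the conjugating enzyme of the anaphase-promoting complex, went from 242 to 1938, and USP44 went from 254 to 9.26.

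Chaperones were mixed. The list had 29 higher and 11 lower of 62 (median 0.83). HSPD1, the mitochondrial chaperonin, went from 18.4 to 321, DNAJC19 of the mitochondrial inner membrane from 11.5 to 260.4 and CCT4 of the cytosolic chaperonin from 2.79 to 152, while CCT8 of the same complex stood at 703 and 587 and did not pass. HSPA1L went from 4.13 to 0.0565. Antioxidant genes had 15 higher and 4 lower of 25 (median 1.32). Among those higher were PRDX3 (18.8 and 137) and TXN2 (8.54 and 164), and among those lower were PRDX2 (190.0 and 15.3) and SOD1 (14.6 and 4.08).

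Arginine, creatine and polyamine enzymes held some of the largest single gains but no general one, with 7 higher and 3 lower of 17 (median 0.41). ODC1, which makes putrescine, went from 5.88 to 479 (fold 81.5, interval 70.4 to 94.8), and ASS1, which makes argininosuccinate, from 0.159 to 38.1. SMS, spermine synthase, went from 68.4 to 7.09 and the antizyme OAZ2 from 14.4 to 1.02. SLC6A8, the creatine transporter, stood at 0.644 and 34.9. Subunits of the V-type ATPase, the proton pump of lysosomes and membranes, were grouped after their values were seen. Of 16, 10 were higher and 1 lower (median 2.13). ATP6V0D2 went from 0.178 to 191 and ATP6V1C2 from 0.521 to 111, whereas the paralog ATP6V1C1 stood at 164 and 102.

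Cholesterol and fatty acid lists were divided. Cholesterol biosynthesis had 6 higher (35.3%, near the 35.0% of all genes) and 3 lower (17.6%) of 17, or 3 and 4 under median-ratio scaling. SC5D went from 4.78 to 67 and NSDHL from 3.62 to 47.9, and FDFT1, squalene synthase, went from 231 to 11.5. Fatty acid synthesis and lipid droplet genes had 5 higher and 4 lower of 13, or 4 and 5 under that scaling. SCD, the stearoyl desaturase, went from 0.383 to 31.9 and the elongase ELOVL7 from 0.498 to 37.1, whereas the elongase ELOVL6 went from 217 to 48.3. Steroid and xenobiotic conjugation genes, SULT1E1 aside, had 3 others higher and 4 lower of 12. Both enzymes that make the sulfate donor were lower, PAPSS1 at 50.6 and 7.82 and PAPSS2 at 2.26 and 0.0671.

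Promoters of genes from the lists that moved as a block, and of a pair of lost oocyte genes, are printed so that the members can be read side by side. They are reference sequences of Sscrofa11.1 with RefSeq gene starts, from 250 bases before to 50 after the start, and each is that of the member with the largest change in its list among those with a placed promoter. Capitals mark CCGGAA (the core bound by ETS factors), CCAAT and TATAAA on either strand, and in NDUFA9 a CCAAT and its reverse overlap.
NDUFA9 (chr5:65788654-65788953, minus strand): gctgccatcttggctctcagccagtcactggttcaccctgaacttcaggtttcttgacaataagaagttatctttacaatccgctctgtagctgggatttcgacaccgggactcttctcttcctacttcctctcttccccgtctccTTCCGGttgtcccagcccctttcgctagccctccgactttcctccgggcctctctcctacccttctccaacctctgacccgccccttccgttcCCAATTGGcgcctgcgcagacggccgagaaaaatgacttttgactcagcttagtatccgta
RPS4X (chrX:58155130-58155429, minus strand): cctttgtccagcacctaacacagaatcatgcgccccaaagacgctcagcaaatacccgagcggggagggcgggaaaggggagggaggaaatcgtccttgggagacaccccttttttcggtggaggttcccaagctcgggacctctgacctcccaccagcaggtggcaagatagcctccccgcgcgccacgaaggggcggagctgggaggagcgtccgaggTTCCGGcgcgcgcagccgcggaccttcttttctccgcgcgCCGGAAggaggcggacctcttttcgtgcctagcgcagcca
PSMA1 (chr2:44739852-44740151, plus strand): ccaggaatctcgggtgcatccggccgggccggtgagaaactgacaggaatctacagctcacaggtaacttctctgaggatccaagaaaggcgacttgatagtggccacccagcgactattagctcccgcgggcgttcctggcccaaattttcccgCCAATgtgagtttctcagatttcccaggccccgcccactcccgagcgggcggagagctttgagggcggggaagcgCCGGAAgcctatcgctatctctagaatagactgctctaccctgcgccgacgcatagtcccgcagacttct
ZP4 (chr14:53576888-53577187, plus strand): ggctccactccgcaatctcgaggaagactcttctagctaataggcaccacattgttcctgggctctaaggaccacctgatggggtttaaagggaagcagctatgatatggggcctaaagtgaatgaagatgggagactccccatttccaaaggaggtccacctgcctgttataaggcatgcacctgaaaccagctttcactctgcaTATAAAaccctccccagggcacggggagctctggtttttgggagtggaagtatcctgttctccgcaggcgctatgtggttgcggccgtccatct
BTG4 (chr9:39281278-39281577, minus strand): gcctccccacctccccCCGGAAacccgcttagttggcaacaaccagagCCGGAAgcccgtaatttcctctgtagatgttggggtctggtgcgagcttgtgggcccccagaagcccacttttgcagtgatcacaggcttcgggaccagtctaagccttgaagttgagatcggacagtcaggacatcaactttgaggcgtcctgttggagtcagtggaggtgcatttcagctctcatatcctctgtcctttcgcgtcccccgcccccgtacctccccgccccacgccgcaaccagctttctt

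Over all 6896 promoters read, 25.7% held CCGGAA, 37.8% held CCAAT and 8.37% held TATAAA on either strand. CCGGAA stood in 64.7% of 34 proteasome, 48.9% of 45 cytosolic ribosomal, 43.9% of 57 mitochondrial ribosomal and 38.9% of 36 respiratory promoters. Each of these shares was above that over all promoters read, but the shares did not follow the direction in every list. CCGGAA was also in 50% of 14 interferon and antiviral promoters, a list with more lower genes, and in 38.8% of 85 kinetochore and spindle promoters. It stood in none of 9 zona and growth factor promoters and in none of 8 cavitation promoters. BTG4, which holds it 2 times, belongs to the decay factors, where it was in 25.8% of 31 promoters. By direction of change, it was in 30.7% of the promoters of higher genes, 29% of those of genes that were neither and 18% of those of lower genes. The shares for CCAAT were close together (38.8%, 39.6% and 35.9%), as were those for TATAAA (7.73%, 8.3% and 9.57%). The median ratio of observed to expected CpG was 0.799, 0.80 and 0.714 in the same order. The ratio moved with the shares, and its part in the difference for CCGGAA was not tested.

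Gene structure also differed between the classes. The median gene model was 2769 bp long for higher genes, 3468 for those that were neither and 3160.5 for lower genes. Higher genes had a median of 9.0 exons and lower genes 13, and the median span in the genome was 24434 bp against 67270 bp. With genes split by model length into 5 bins of equal size, the share called higher went down from bin to bin, from 45.4% through 39.3%, 34.5% and 30% to 25.9%. Without the ribosomal, respiratory and proteasome lists, which are short genes, it was still 42.9% in the shortest bin and 25.4% in the longest bin. The share called lower showed no such course (29.6% in the shortest and 28.5% in the longest bin). The part of gene length in the calls of single genes was not tested.

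Oocyte genes made up the clearest losses. Of 10 zona pellucida and oocyte growth factor genes 9 were lower and 0 higher (median -2.97), and their summed FPKM went from 1315 to 54.9. ZP4, a protein of the egg coat, went from 187 to 5.77 and OOSP2, a secreted oocyte protein, from 969 to 33.9. BMP15 and GDF9, the growth factors of the oocyte, went from 53.4 to 2.02 and from 31.9 to 1.7. Of 11 genes of the subcortical maternal complex and other maternal effect genes 9 were lower (median -3.56). H1-8, the oocyte linker histone, went from 1210.0 to 37.6, NLRP9 from 327 to 6.91 and OOEP from 78.6 to 5.77. The one that was higher was TRIM28, a corepressor that guards imprints, at 1.32 and 9.53.

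Meiotic genes were lost in part, with 8 lower and 2 higher of 17 (median -0.74). MOS, which holds the egg at metaphase, went from 91.8 to 2.06 and WEE2, the oocyte kinase that inhibits CDK1, from 331 to 7.29. CDK1 itself went from 108 to 869. CCNB1, its cyclin, stood at 643 and 965 and did not pass, and CCNB2 went from 287 to 73.9. The wider list of cyclins, kinases and inhibitors had 3 higher and 4 lower of 22, and most of it (15) passed in neither direction. Kinetochore, spindle and cytokinesis genes had 19 higher (21.6%, beside 35.0% of all genes) and 27 lower (30.7%, near 28.1%) of 88 (median -0.15). Replication genes had 13 higher and 3 lower of 41 (median 0.56), or 8 and 3 under median-ratio scaling, with GINS1 at 1.08 and 34.6 and POLD3 at 331 and 48.9. DNA repair genes had 11 higher and 9 lower of 45, or 10 and 15 under median-ratio scaling, with NBN at 2.38 and 76.2 and ERCC4 at 20.6 and 0.162.

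Factors that act on stored RNA changed in both directions. Of 32 decay factors 4 were higher (12.5%, beside 35.0% of all genes) and 10 lower (31.25%, near the 28.1% of all genes). The median was -0.55. BTG4 aside, the losses included CNOT7, a catalytic deadenylase, from 248 to 54, and PABPN1L, an oocyte poly(A) binding protein, from 12.1 to 0. PUM2, a repressor that binds RNA, went from 3.13 to 17.2, and CNOT2, a scaffold of the same deadenylase complex, from 43 to 104. Among 24 factors that bind or polyadenylate stored RNA 6 were higher and 10 lower. CPEB1, which controls polyadenylation in the oocyte, went from 6.33 to 0.0345 and ELAVL2 from 27.4 to 2.94, whereas PABPC1, the general poly(A) binding protein, went from 14.3 to 110.3 and IGF2BP1 from 0.402 to 16.2.

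Carriers into and out of the nucleus had 12 higher and 3 lower genes of 25 (median 0.83), KPNA7 among the lower ones. IPO5 went from 3.1 to 68.6 and KPNA6 from 3.72 to 25.2, while KPNA2 went from 588 to 246 and IPO8 from 29.1 to 3.74. In RNA polymerase II and its general factors 18 of 43 were higher and 6 lower (median 0.75). POLR2H went from 12.8 to 107 and CDK7 of TFIIH from 37.1 to 259.9. TBPL2, the oocyte form of the TATA binding protein, went from 11 to 0.0309. Splicing factors had 23 higher and 9 lower of 74, or 14 and 15 under median-ratio scaling, with SNRPA at 8.65 and 182 and PRPF19 at 22.5 and 2.4.

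The DNA methylation list fell with the oocyte genes, 6 of 9 lower and 1 higher (median -1.39). DNMT1, the maintenance methyltransferase, was at 3581 in oocytes, 2029.9 at 2 cells, 2162 at 4 cells and 53.6 at 8 cells (fold 40.3, interval 39.3 to 41.3). It declined further to 28.7 in morulae and 4.22 in TE. UHRF2 went from 442 to 23.5 and DNMT3A from 10.1 to 0.831, while MBD4, a glycosylase of mismatched thymine, went from 0.401 to 18.7. Histone lysine methyltransferases had 8 lower and 2 higher of 17 (median -0.87). NSD3 went from 75.4 to 3.58 and NSD1 from 52.4 to 13.3, and EED, a core subunit of Polycomb complex PRC2, went from 45.4 to 240.4. Demethylases had 2 higher and 2 lower of 10. Acetylation and remodelling genes had 12 higher and 14 lower of 47, which became 15 and 14 with a pseudocount of 0.1. HDAC1 went from 5.92 to 29.6 and BRD7 from 92.5 to 16.8. The linker histone gene H1-3 went from 136 to 42.8.

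Among 19 pluripotency and genome activation factors 5 were higher and 8 lower (median -0.87). Apart from SPIC, KLF5 went from 3.2 to 27.1, TBX3 from 0.0203 to 7.39 and DPPA2 from 85.9 to 271. DPPA5 went from 355 to 29.9, MYC from 49.8 to 3.76 and LIN28A from 27.6 to 1.26. KLF4 stood at 34.6 and 61.3 and did not pass. Lineage markers were at low levels. Of 9 trophectoderm markers 3 were higher and 1 lower, with TEAD4, which drives trophectoderm fate, at 1.7 and 14.5 and TFAP2C at 25.6 and 12.1. Of 8 hypoblast markers 4 were higher and 3 lower, or 2 and 3 under median-ratio scaling, with GATA6 at 1.78 and 28.3.

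Of 30 cell junction and polarity genes 12 (40%) were higher, a share near the 35.0% of all genes, and 3 were lower (median 0.71). Median-ratio scaling gave 9 and 6. The gap junction protein GJB5 went from 0 to 57.5, at least 249.7-fold above the floor of 3 fragments. DSC2, a desmosomal cadherin, went from 1.22 to 36.3, CLDN6, a tight junction protein, from 4.06 to 57.9 and CLDN1 from 32.8 to 163. CDH1, E-cadherin, stood at 22.6 and 33.9 and did not pass, and DSP, desmoplakin, went from 17.5 to 3.06. Cytoskeleton genes had 16 higher and 5 lower of 36 (median 0.49). TUBA1B went from 34.5 to 482 and the annexin ANXA1 from 6.37 to 59.8, and CNN3, a calponin, went from 273 to 21.4 and MYH9, nonmuscle myosin, from 13 to 1.0. Of 4 ion and water transport genes of cavitation 3 were higher, among them AQP11 at 0.346 and 6.91.

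Signalling and stress lists were small. Of 24 FGF, WNT, BMP and Nodal genes 5 were higher and 8 lower (median -0.58), or 3 and 11 under median-ratio scaling. ID3, a target of BMP signals, went from 247 to 7.46 and BMP4 from 30.5 to 3.14, and TGIF1, a repressor of TGF-beta targets, went from 0.937 to 37.2. Immediate early genes had 7 higher and 1 lower of 10 (median 1.46), with HES1 at 0.27 and 11.9 and DUSP1 at 8.92 and 38.9. Interferon and antiviral genes had 7 lower and 2 higher of 14. RIGI, a sensor of viral RNA, went from 35.4 to 2.44. Apoptosis genes had 7 higher and 4 lower of 17, with CASP6 at 4.8 and 132 and BCL2L1, which protects cells, at 11.6 and 1.44.

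The largest families moved in both directions. Solute carriers had 43 higher, 39 lower and 41 in neither class, or 37 and 44 under median-ratio scaling. SLC25A3, the mitochondrial phosphate carrier, went from 18.9 to 848 and SLC34A2, a phosphate transporter of the cell surface, from 1.37 to 81.3, while SLC39A8, a zinc transporter, went from 91.2 to 2.48. Zinc finger genes named ZNF or ZSCAN had 22 higher (19.0%, beside 35.0%) and 30 lower (25.9%, near 28.1%) of 116. Median-ratio scaling gave 13 and 41. ZNF146 stood at 22.5 and 385 and ZNF648 at 91.8 and 2.35.

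The same step in clones asks how far these classes hold when the embryo comes from a transferred nucleus and grows in culture. The 3 pairs of libraries share no library. In NT-D embryos 2455 of 7830 genes (31.4%) were higher at the 8-cell stage and 2244 (28.7%) lower, and in NT-LW embryos 2205 of 7848 (28.1%) and 2012 (25.6%). Of the 2801 genes higher in vivo, 1806 (64.5%) were higher in NT-D and 1651 (58.9%) in NT-LW. Of the 2250 lower in vivo, 1678 (74.6%) were lower in NT-D and 1521 (67.6%) in NT-LW. All 3 pairs shared 1499 higher and 1403 lower genes. Opposite calls were few, 48 and 54 of the higher and 40 and 25 of the lower genes in NT-D and NT-LW. With 1 library for each condition no difference between the groups was tested.

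Levels at the 8-cell stage show where the clones stood. Stored transcripts that were lost in vivo had a median FPKM of 2.04 in IV-D, 3.55 in NT-D and 4.68 in NT-LW 8-cell embryos, from 14.2, 15.1 and 14.5 at the 4-cell stage. Genes first seen in the in vivo 8-cell library had medians of 4.26, 1.57 and 1.53. The IV-D library defined these classes, so its values are the more extreme by choice. SULT1E1 was also gained in both clone groups, from 0 to 342 in NT-D and from 0.083 to 287 in NT-LW. CKB went to 24.8 and 7.89 and ARG1 to 13.1 and 14.3, beside 504 and 309 in vivo. RNASE1 stood at 1.73 and 8.48 beside 206. BTG4 remained at 108 and 289.8 beside 16.9, and UCHL1 at 52.9 and 101 beside 2.32.

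The lists were compared with the clones by their medians. Respiratory subunits had medians of 3.05, 2.46 and 2.25 in IV-D, NT-D and NT-LW, cytosolic ribosomal proteins 2.72, 2.70 and 2.45, and proteasome subunits 1.55, 1.71 and 1.34. The zona and growth factor list had -2.97, -2.79 and -2.06. Aminoacyl-tRNA synthetases had 17 of 20 higher in vivo, 11 of 18 in NT-D and 7 of 17 in NT-LW (medians 1.70, 1.18 and 0.90). The tricarboxylic acid cycle had 17 of 23, 11 of 21 and 8 of 21 higher (medians 1.65, 1.14 and 0.60). Junction and polarity genes differed in sign, with a median of 0.71 in vivo, -0.53 in NT-D and -0.54 in NT-LW. In NT-D 5 were higher and 9 lower of 26, beside 31.4% and 28.7% of all genes. In NT-LW 6 were higher and 9 lower of 27, beside 28.1% and 25.6%. Medians of other lists also differed in sign from both clone groups. They were 0.62, -0.72 and -0.48 for trophectoderm markers and 0.33, -1.30 and -1.06 for hypoblast markers. Cavitation genes had 2.03, -0.007 and -0.99, and solute carriers 0.40, -0.11 and -0.06. The number of members compared differed between the groups, and the differences in sign were not tested. CLDN6, named for its rise in vivo, reached 1.18 and 1.23 in the clones and 57.9 in vivo. DSC2, named likewise, reached 0.843 and 0.831 beside 36.3. Immediate early genes had medians of 1.46, 0.14 and -0.40, and zinc finger genes -0.02, 0.39 and 0.45.

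**Figure D5:**
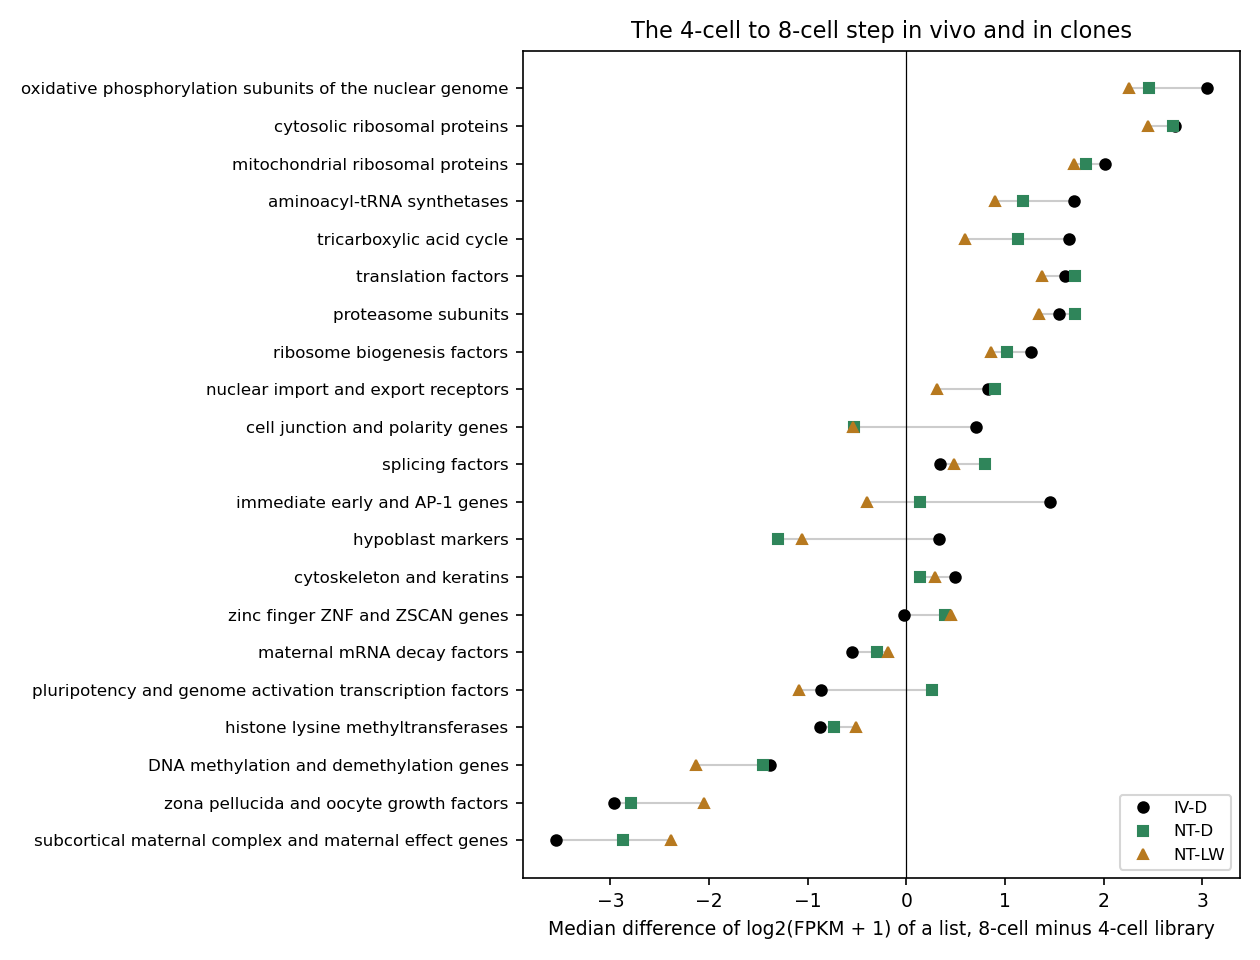
Points are list medians of the difference of log2(FPKM + 1) between the 8-cell and 4-cell libraries in IV-D, NT-D and NT-LW embryos (1 library at each stage in each group). Respiratory, ribosomal, zona and maternal effect lists lie on the same side of 0 in all 3 groups. The junction list is at 0.71 in vivo and at -0.53 and -0.54 in clones, and the hypoblast list at 0.33, -1.30 and -1.06.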

How the data were processed

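The values used were the FPKM of 8603 genes in 23 libraries as the authors deposited them, 1 library for each condition. Per the labels and the methods, cDNA was amplified with SMART-Seq v4, reads were aligned to Sscrofa11.1 with HISAT2 2.0.4 and counted with HTSeq 0.9.1 against the Ensembl annotation (versions from the submitters' processing notes). The step that chose the 8603 genes is not given in the sources used here, so counts cover that table. For 8602 genes FPKM values were turned back into whole fragments by the size of their smallest steps, which gave gene lengths and library depths (95% intervals from scipy 1.17.1). The recovery and the fold rule were tested on simulated data.

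Genes were compared at an FPKM of at least 1 in either library, with a pseudocount of 1 and a log2 difference over 1. No test was possible with 1 library a side. The members and the 45 gene lists, written from general knowledge, were chosen with earlier results of these data known. Named were the 20 largest changes each way with a symbol and an FPKM of at least 10, the 10 highest genes of each library, the largest changes of each class, marker genes, and up to 4 higher, 4 lower and 2 other members of a list. A few further genes, CLDN1 among them, were chosen after their values were seen, and some genes that the rule names are not reported here. Symbols (7371 genes) came from a gene name table, and positions and promoters (6896) from RefSeq. Alternatives were other pseudocounts, minimum FPKM, limits and scalings. An interval of the fragment ratio past 2-fold was added after the data were seen. Added replicates and donor cells were not analysed here. Python 3.11.15, numpy 2.4.6, pandas 2.3.3 and matplotlib 3.10.9 were used.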

Additional observations from a re-analysis of the deposited data

Results flagged for a closer look

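Some genes moved one way at the in vivo step and the opposite way in both clone groups. By the fold rule 39 genes did so, 17 of them with a symbol and an FPKM of at least 10 in an in vivo library. The difference between the groups was not tested, since each group had 1 library at each stage.

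Of these 17 genes, 14 were higher in vivo and lower in both clone groups. The log2 differences in vivo were 3.48 for RND3, a small GTPase, 3.30 for CYP26A1, which degrades retinoic acid, 2.81 for RPL10L, a ribosomal protein of germ cells, and 2.66 for SELENOM. They were 2.25 for ASZ1, a germ cell protein of the piRNA pathway, 1.70 for ACTG1, cytoplasmic gamma actin, 1.53 for RBPMS, 1.42 for FEZ1, 1.35 for AP2M1, a clathrin adaptor subunit, and 1.23 for HORMAD1, a protein of the meiotic chromosome axis. IL6ST, the shared receptor of interleukin 6 cytokines, had 1.23, SLCO4C1 1.15, ANXA2, an annexin, 1.13 and LRATD2 1.02. The genes lower in vivo and higher in both clone groups were C12orf75 (-1.08), TRAPPC6B (-1.11) and TMEM68 (-1.95).

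RND3 had an FPKM of 2.85 and then 41.8 in vivo, 12.7 and 5.70 in NT-D and 8.62 and 3.31 in NT-LW. ASZ1 stood at 4.24 and 23.9 in vivo, 2.70 and 0 in NT-D and 1.57 and 0.171 in NT-LW, and HORMAD1 at 34.4 and 81.9, 26.6 and 4.46, and 20.2 and 4.59. ANXA2 stood at 108 and 238 in vivo, 182 and 34.3 in NT-D and 183 and 74.9 in NT-LW. TMEM68 stood at 24.1 and 5.49 in vivo, 5.63 and 35.3 in NT-D and 13.5 and 35.2 in NT-LW.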

How the results depend on the processing

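Counts of 2801 higher and 2250 lower genes stayed within 1.5 times under a pseudocount of 0.1, a minimum FPKM of 5 or none, both scalings and the added rule on the fragment ratio (2819 and 2294), and fell to 1372 and 1074 with a log2 difference over 2. With a minimum FPKM of 5 also used to define presence, the higher genes split into 1467 seen before and 882 first seen at the 8-cell stage, in place of 2252 and 549. Lists with more higher than lower members numbered 29 of 45, and 22 to 30 under the alternatives. Median-ratio scaling left fewer higher than lower members in hypoblast markers (2 higher), splicing factors (14), cholesterol biosynthesis (3), fatty acid synthesis (4), DNA repair (10), solute carriers (37) and ubiquitin enzymes (15), and a pseudocount of 0.1 did the reverse for acetylation and remodelling (14 lower). Under that scaling 8 replication, 9 junction and 13 zinc finger genes were higher, in place of 13, 12 and 22. Among genes higher in vivo, the shares also higher in NT-D and NT-LW were 67.8% and 62.9% with a pseudocount of 0.1, and in NT-LW 61.9% under median-ratio scaling. Among lower genes they were 76.8% and 71.8% with that pseudocount, 70.9% in NT-D with a minimum FPKM of 5 and 65.1% in NT-LW under that scaling. The cause of these shifts was not tested. No paired analysis was possible because each condition had 1 library. Below an FPKM of about 0.189 at the 4-cell or 0.146 at the 8-cell stage, a gene of 1 kb has fewer than 3 fragments.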
